A study of Mus musculus with 10 samples.

Results

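Sertoli cells from 6-day-old mice (6 days post partum, dpp) were treated with 50 ng activin and compared with Sertoli cells of the same age that received 0 ng. Of the 10 arrays in the series, 4 belong to this comparison: 2 carry the 50 ng dose and 2 carry no activin. Values from cells of the same age given 5 ng (2 arrays), and from cells of mice aged 15 dpp given 0 or 5 ng (2 arrays each), are set beside them. All 10 samples are labelled as murine Sertoli cells, and no genotype, strain, culture medium or treatment time is given in the labels. The labels state the dose in ng without a volume. Nothing in them tells whether a pair of replicates stems from different animals or cultures. The p-values therefore cover just the scatter among these arrays, and that scatter could be technical. Cells that lose a transcript and a preparation with fewer of the cells that make it cannot be told apart in RNA from whole cultures.

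Activin is a dimer of beta subunits of the transforming growth factor beta (TGF-beta) family. It binds type II receptors, which activate type I receptors that phosphorylate SMAD2 and SMAD3, and these enter the nucleus with SMAD4 to act on target genes. Sertoli cells nurse the germ cells of the seminiferous tubule. They divide in early postnatal life, when activin acts as one of their growth signals, and then stop dividing, tighten their junctions and take on the adult programme. The series concerns SMAD signalling in development, and the comparison asks which transcripts differ after 50 ng activin at an age when the cells still divide.

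The measurement was 1 deposited linear signal per probe set and array, and a change is given as a difference of log2(signal + 16) after quantile normalisation. Adding 16 makes the change of a weak gene smaller than the ratio of its signals. Median signals lay between 29.7 and 35.3 on the 10 arrays, and arrays of the same group correlated at 0.987 to 0.990 across genes, which are not independent replicates. At 6 dpp, arrays of different doses correlated nearly as well, at 0.982 to 0.990. Many Sertoli cell genes were abundant in the 4 arrays compared. Clu read 8814 to 9569, Vim 5836 to 6746, Aard 3615 to 5309, Cst12 4513 to 5691, Dmrt1 1169 to 1492, Wt1 478 to 499 and Sox9 447 to 683. Amh, the hormone of the immature Sertoli cell that makes the Müllerian duct regress, read 26.1 to 65.6. Other members of that list were weak as well: Sox8 read 27.5 to 78.8, Gata1 48.5 to 63.1 and Tsx 2.98 to 13.5.

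Of 12405 genes tested, 179 (1.44%) differed between 50 ng and 0 ng at an adjusted p under 0.05 (limma, 5 residual degrees of freedom shared by all 10 arrays, Benjamini-Hochberg adjustment). The dose raised 97 genes (0.782%) and lowered 82 (0.661%). The 14 largest increases named by rule were, in order of size, those of Hsd17b1, E2f5, Zg16, Slc13a2, Prrx2, Socs2, Tesc, Serpina5, Trim62, Spata21, Hsd17b3, Fstl3, Zfpm1 and S1pr1. The largest decreases among genes named by that rule were those of Parvb, Rarres1, Ctdspl2, Mgarp and Slc52a3. Changes past 2-fold were found for 17 genes that rose and 7 that fell, and the median size was 0.66 log2 units over all 97 raised genes and 0.57 over all 82 lowered ones. For all 179 genes the 2 arrays of one group lay wholly above the 2 of the other, which was also so for 44.2% of all genes tested. Where the arrays of a called gene are said below not to overlap, this describes the gene and adds no evidence to its call.

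**Figure D1:**
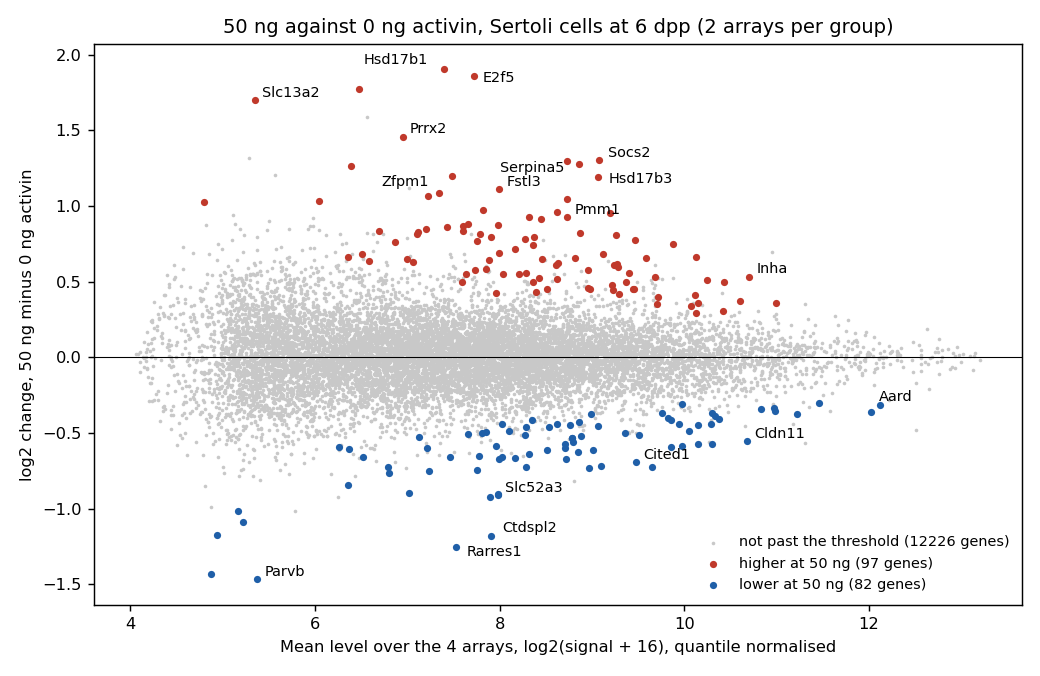
Change of each of the 12405 genes (vertical axis, log2, 50 ng minus 0 ng) against its mean level over the 4 arrays (horizontal axis, log2(signal + 16)), with 97 genes past the threshold above 0 in red and 82 below 0 in blue. Hsd17b1 and E2f5 stand highest at 1.90 and 1.86, Parvb lowest at -1.47, and genes with strong signals such as Aard passed with changes of under 0.5.

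The number of calls rested on individual arrays. Without the second 50 ng array 17 genes passed, without the second 0 ng array 17, without the first 0 ng array 60 and without the first 50 ng array 115. The genes that passed whichever of these 4 arrays was left out were 11: Hsd17b1, Prrx2, Serpina5, Zfpm1, Abcb10, Bok and Pmm1 among those that rose, and Rarres1, Slc52a3, Cited1 and Scara3 among those that fell. These genes, picked out after their values were seen, passed under each of the 22 alternative settings in which they were measured (21 for Prrx2). Those settings include the 4 fits by which the genes were chosen. The others refit the same data, so passing them is no independent support. Every other gene named below as passing lost its call without at least 1 of the 4 arrays.

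Among genes of the activin and TGF-beta pathways, Fstl3, Ltbp1, Inha and the inhibitory Smad7 rose. Of these, Fstl3 encodes a secreted activin antagonist and Inha the inhibin alpha subunit. No receptor passed in the fit as reported. Fstl3, a secreted relative of follistatin that binds activin and keeps it from its receptors, read 187 and 133 on the 0 ng arrays and 382 and 330 on the 50 ng arrays. The lowest treated array stood well above the highest untreated one. The change was 1.11 ± 0.16 (SE; limma adjusted p = 0.0077), and it missed the threshold without the second 0 ng array (adjusted p = 0.063) or the second 50 ng array (adjusted p = 0.057). Fst, which encodes follistatin itself, read 505 and 363 without activin and 501 and 356 with it. The groups overlapped almost completely, with a change of -0.01 ± 0.20. Ltbp1, which holds latent TGF-beta in the matrix, rose from 177 and 167 to 244 and 316 (0.65 ± 0.13, adjusted p = 0.037). Of 8 extracellular antagonists and binding proteins of activin and TGF-beta measured, Fstl3 and Ltbp1 rose and none fell. The share that rose over all genes was 0.782%. The median change of the 8 was 0.16 beside 0.01 over all genes. Ltbp3 stood at 0.48 without passing (adjusted p = 0.15).

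Inha, the alpha subunit that turns an activin beta chain into inhibin, the antagonist of activin, read 1383 and 1394 without activin and 1786 and 2281 with it. Every treated array exceeded every untreated one. The change was 0.53 ± 0.11 (limma adjusted p = 0.035), and the call was lost without the second 50 ng array, which carried the highest value (adjusted p = 0.23). The beta subunit genes gave no call. Inhba stood at 498 and 615 against 505 and 588, and Inhbb at 1824 and 1879 against 1590 and 1564. The Inhbb arrays did not overlap, but the difference of -0.20 ± 0.09 had an adjusted p of 0.36.

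None of 11 receptors and co-receptors passed in the fit as reported, in either direction. Acvr2a and Acvr2b, the type II receptors that bind activin, changed by -0.22 ± 0.11 and 0.06 ± 0.15. Acvr1b, the type I partner known as ALK4, stood at 0.12 ± 0.13, and its TGF-beta counterpart Tgfbr1 at -0.32 ± 0.08 (limma adjusted p = 0.069). The lowest value in this list was that of Amhr2, the receptor of anti-Müllerian hormone. It read 3029 and 3317 without activin and 1844 and 2393 with it. The groups stood apart, but the change of -0.57 ± 0.13 fell short of the threshold (adjusted p = 0.065). All 3 probe sets of Amhr2 were lower at 50 ng, by 0.53 to 0.82 log2 units, and the one with the largest difference, which was not the one with the highest mean, passed when probe sets were tested singly (adjusted p = 0.015). The gene passed in 6 of the 22 alternatives, among them the subtraction of array medians in place of quantile normalisation (adjusted p = 0.012).

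Among 15 SMADs and their nuclear partners, Smad7 alone passed. This inhibitory SMAD blocks the type I receptor. It read 122 and 145 without activin and 242 and 270 with it. Each treated array lay above both untreated ones. The change was 0.88 ± 0.19 (limma adjusted p = 0.044), lost without any 1 of the 4 arrays (adjusted p = 0.10 to 0.25), and the second probe set of the gene stood at 0.33. Smad2 and Smad3, which carry the activin signal, changed by 0.18 ± 0.11 and -0.31 ± 0.13, with adjusted p of 0.52 and 0.29. Tgif1, a corepressor of SMAD2 and SMAD3, stood at 0.39 ± 0.10 (adjusted p = 0.075). Pmepa1, which takes up receptor SMADs, read 273 and 267 against 450 and 410, a difference of 0.65 that did not pass (adjusted p = 0.14).

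In a list of 25 genes known as targets of SMAD2 and SMAD3 in other cells, 3 rose (Fstl3, Smad7 and Pdgfb) and none fell. Over all genes tested, 0.782% rose and 0.661% fell. A positive value was found for 19 of the 25, and for 6440 of all 12405 genes. The median was 0.22 beside 0.01 over all genes. Pdgfb, a growth factor subunit that acts on mesenchymal cells, read 309 and 229 without activin and 522 and 542 with it. The treated arrays were close to each other and far above the untreated ones. Its change was 0.96 ± 0.17 (limma adjusted p = 0.018), and its other probe set passed as well at 0.86. The list did not move as a block: Tgfbi stood at -0.81, Snai2 at -0.50 and the matricellular Ccn1 at -0.04, none past the threshold. Of 9 other ligands of the family, none passed, and Tgfb1 had the smallest p at 0.33 ± 0.14 (adjusted p = 0.32).

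The stretch of 250 bases before the start of each gene was searched for the SMAD box, CAGAC on either strand, the short core that SMAD3 and SMAD4 bind. RefSeq's GRCm38.p6 table held 96 such promoters for 75 of the genes that rose, and 42.7% of them had the box. The share was 40.2% in 87 promoters of 66 genes that fell and 42.2% in all 32851 promoters of the table, close to the share before genes that rose. The SMAD palindrome GTCTAGAC was present in none of the promoters of genes that rose, in 1.15% of those of genes that fell (Srsf1) and in 0.167% of all. The stretches of 3 genes that rose, among them Fstl3 and Inha described above, are printed 5′ to 3′ with each match to the SMAD box in capitals. Fstl3 has matches that begin 161 and 14 bases before the start, and Serpina5, the protease inhibitor described further on, has 1 at 207 bases. Inha has 1 at 186 bases before the start in the table. From its first base the Inha stretch reads as codons without a stop for most of its length, as coding sequence does. It is therefore not shown to be a promoter, and its match is not shown to be a SMAD site.
Fstl3, chr10:79777024-79777273, plus strand: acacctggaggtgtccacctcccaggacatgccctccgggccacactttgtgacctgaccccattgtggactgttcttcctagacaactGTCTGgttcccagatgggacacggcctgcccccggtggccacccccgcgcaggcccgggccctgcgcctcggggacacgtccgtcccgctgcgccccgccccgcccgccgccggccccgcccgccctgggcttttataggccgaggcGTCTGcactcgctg
Inha, chr1:75507359-75507608, plus strand: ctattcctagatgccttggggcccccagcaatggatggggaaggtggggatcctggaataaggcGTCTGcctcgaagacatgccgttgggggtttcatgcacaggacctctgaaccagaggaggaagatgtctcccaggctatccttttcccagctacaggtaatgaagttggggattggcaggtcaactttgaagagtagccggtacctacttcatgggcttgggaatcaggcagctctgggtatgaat
Serpina5, chr12:104100863-104101112, plus strand: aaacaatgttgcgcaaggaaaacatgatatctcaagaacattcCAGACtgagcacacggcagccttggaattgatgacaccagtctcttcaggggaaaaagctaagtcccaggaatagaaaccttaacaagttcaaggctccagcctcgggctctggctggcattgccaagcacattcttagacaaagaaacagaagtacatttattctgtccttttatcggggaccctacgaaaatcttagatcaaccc

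Hsd17b1 and Hsd17b3, which reduce 17-ketosteroids to active sex steroids, both rose. Hsd17b1, which converts estrone to estradiol, read 72.9 and 69.1 without activin and 276 and 338 with it. On the log2(signal + 16) scale this was the largest increase of any gene tested, although under other settings the weaker Slc13a2 reached 3.13 against at most 2.11 for Hsd17b1. The treated arrays stood far above the untreated ones. The change was 1.90 ± 0.17 (limma adjusted p = 0.00045), and it passed without each of the 4 arrays in turn (adjusted p = 0.0037 to 0.013). Hsd17b3, which converts androstenedione to testosterone and is known in Sertoli cells of the fetal testis, read 290 and 389 without activin and 693 and 903 with it. The groups did not overlap, though replicates within each group differed. Its change was 1.19 ± 0.21 (adjusted p = 0.017), with an adjusted p of 0.16 without the second 50 ng array and 0.12 without the first 0 ng array.

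The other 12 measured genes of steroid synthesis and metabolism gave no call, and the median of the 14 was -0.13. Hsd3b1 stood at -0.29, Cyp17a1 at -0.32, Cyp11a1 at 0.09 and Star, which carries cholesterol into the mitochondrion, at 0.24. Hsd17b3 is also a marker of Leydig cells, the steroid-making cells outside the tubule. The summed signal of the 7 Leydig cell markers measured was 1633 and 1935 at 0 ng and 1955 and 2399 at 50 ng. Without Hsd17b3 itself, the sum of the other 6 was 1342 and 1545 at 0 ng and 1261 and 1496 at 50 ng, with overlapping groups. None of the 6 passed, and Ptgds, the strongest of them, read 511 and 760 against 527 and 781. Ptgds is also in the list of Sertoli cell identity genes, and the Leydig cell markers Insl3 and Lhcgr had no probe set. Hsd3b1 read 496 and 507 against 405 and 396, without overlap. The sum is thus no measure of Leydig cell content.

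Serpina5, the protein C inhibitor, a serine protease inhibitor needed for male fertility, read 298 and 269 without activin and 678 and 739 with it. Replicates agreed closely and the groups were far apart. The change was 1.27 ± 0.15 (limma adjusted p = 0.0030). Cst9, a cystatin made by Sertoli cells, moved the other way, from 1083 and 984 to 573 and 653. All treated values lay below all untreated ones. The change was -0.73 ± 0.15 (adjusted p = 0.038), lost without any 1 of the 4 arrays (adjusted p = 0.11 to 0.17). Of 25 protease inhibitors and secreted proteases measured, these were the calls. Cst12, a close relative of Cst9, stood at -0.28 (adjusted p = 0.055), and the gelatinase Mmp2 at 0.52 (adjusted p = 0.059).

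Socs2, which damps signalling by the growth hormone receptor, read 296 and 362 without activin and 727 and 953 with it. The lower treated array was still above the higher untreated one by a wide margin. The change was 1.30 ± 0.18 (limma adjusted p = 0.0064), and the adjusted p was 0.071 without the second 50 ng array. All 5 probe sets of Socs2 had positive values of 1.05 to 1.30, and 3 passed. Socs3 stood at -0.30, Cish at 0.03 and Stat3 at -0.26, all far from the threshold. The other call among 30 genes of cytokine receptors and JAK-STAT signalling was Il10ra, the ligand-binding chain of the interleukin 10 receptor. It read 31.5 and 31.0 without activin and 1.87 and 2.40 with it. These are among the lowest signals of any called gene, and the change of -1.43 ± 0.22 (adjusted p = 0.0083) depends on the 16 added to each signal.

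Several factors that act on DNA or with it were among the largest increases. Prrx2, a homeodomain factor of mesenchyme, read 59.5 and 57.3 without activin and 176 and 203 with it. The replicates were tight and the groups well apart. The change was 1.46 ± 0.17 (limma adjusted p = 0.0030). Zfpm1, known as FOG1, a cofactor of GATA factors, read 102 and 90.2 against 212 and 226, a change of 1.08 ± 0.13 (adjusted p = 0.0030). Both were higher on each treated array than on any untreated one. Gata4, a GATA factor that Sertoli cells need, rose by less, from 493 and 504 to 665 and 697 (0.45 ± 0.10, adjusted p = 0.048). Its call was lost under median scaling (adjusted p = 0.18).

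E2f5, a cell cycle factor that works mainly as a repressor with pocket proteins, read 111 and 81.4 without activin and 270 and 534 with it. The groups stood apart, but the treated arrays differed from each other by more than the lower of them did from the controls. The change was 1.86 ± 0.28 (limma adjusted p = 0.0083). It rested on 1 probe set: of the 3 measured, 1 had the opposite sign, and the lowest value was -0.19. In the 24 regulators of the G1 phase this was the only call. E2f1 stood at 0.70 ± 0.17 (adjusted p = 0.075).

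Ccnd2, a D-type cyclin that drives entry into S phase, read 1546 and 1559 without activin and 2449 and 2719 with it. Replicates at 6 dpp were tight and the groups far apart, and all 7 probe sets of the gene had positive values of 0.46 to 0.88. The change of 0.70 ± 0.35 nevertheless missed the threshold (limma adjusted p = 0.40), because the spread was estimated over all 10 arrays and Ccnd2 varied between replicates at 15 dpp, reading 1355 and 3131 without activin. With the arrays of 6 dpp alone, the adjusted p was 0.0076. Gja1, which encodes the gap junction protein connexin 43, read 2151 and 2423 against 2753 and 3192. The groups did not overlap, and the change of 0.35 ± 0.23 did not pass in either fit (adjusted p = 0.54, and 0.17 with the arrays of 6 dpp alone).

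Other large increases fell in genes of diverse roles. Tesc, the calcium-binding tescalcin first described in the developing testis, read 212 and 304 without activin and 550 and 764 with it. The groups were apart, with replicate 2 above replicate 1 in each. Its change was 1.30 ± 0.22 (limma adjusted p = 0.013), and both its probe sets passed. S1pr1, a receptor of sphingosine 1-phosphate, went from 85.0 and 90.5 to 198 and 201 (1.06 ± 0.15, adjusted p = 0.0076). Spata21 went from 104 and 102 to 226 and 282 (1.20 ± 0.19, adjusted p = 0.0090). In both genes the treated arrays read more than any untreated array.

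The remaining increases named by size came from weak signals. Zg16, a lectin of secretory granules, read 23.3 and 40.7 without activin and 101 and 215 with it (1.77 ± 0.32, limma adjusted p = 0.018). All 3 of its probe sets passed, although the treated replicates differed widely. Slc13a2, a transporter of citrate and other dicarboxylates, read 10.3 and 2.48 against 57.9 and 58.6 (1.70 ± 0.26, adjusted p = 0.0083). Its untreated signals lay under 18.4, the level below which probe sets were left out on their mean. Trim62, a RING ubiquitin ligase, read 34.7 and 39.6 against 102 and 129 (1.27 ± 0.17, adjusted p = 0.0064). Its second probe set stood at -0.12.

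Rarres1, a membrane protein gene switched on by retinoic acid in other cells, was the most clearly lowered gene. It read 265 and 268 without activin and 109 and 99.4 with it. Replicates were nearly equal and the groups far apart. The change was -1.25 ± 0.12 (limma adjusted p = 0.00080). Stra6, which takes retinol from its plasma carrier into the cell, rose from 173 and 130 to 277 and 271 (0.82 ± 0.14, adjusted p = 0.017). These were the 2 calls among 13 genes of retinoid handling, beside 1.44% of all genes. A negative value was found for 10 of the 13, and for 5965 of all 12405 genes. Cyp26b1, which breaks down retinoic acid, stood at -0.71 without passing (adjusted p = 0.21).

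Slc52a3, a riboflavin transporter, read 346 and 315 without activin and 152 and 187 with it. The groups stood far apart. The change was -0.91 ± 0.10 (limma adjusted p = 0.0026). Cited1, a coactivator partner of CBP and p300, read 845 and 955 against 541 and 543. The treated replicates were almost identical and well below both controls. The change was -0.69 ± 0.08 (adjusted p = 0.0030). Scara3, a scavenger receptor of oxidative stress, fell from 529 and 473 to 318 and 321 (-0.60 ± 0.08, adjusted p = 0.0058).

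Parvb, which encodes beta-parvin, a partner of integrin-linked kinase at focal adhesions, had the largest decrease on the log scale. It read 46.9 and 57.8 without activin and 13.4 and 5.67 with it. The treated signals lay below the filter level, so the change of -1.47 ± 0.21 (limma adjusted p = 0.0076) depends on the 16 added to each signal. Itgb5, an integrin chain of the same contacts, rose from 527 and 457 to 764 and 735 (0.59 ± 0.09, adjusted p = 0.0084). Of 26 focal adhesion and actin genes these were the calls. Parva, the relative of Parvb, stood at 0.30 and Zyx at 0.42, neither past the threshold.

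The other decreases named by size were mostly moderate. Ctdspl2, a phosphatase, read 345 and 342 without activin and 184 and 114 with it (-1.18 ± 0.18, limma adjusted p = 0.0084), while its other probe sets reached as little as -0.00. Mgarp, a mitochondrial protein, fell by 0.93 ± 0.16, Tmem255a by 0.90 ± 0.13, Scn3b, a sodium channel subunit, by 0.84 ± 0.15, and Retreg1, a receptor for autophagy of the endoplasmic reticulum, by 0.75 ± 0.12. Tmem255a had 1 of 4 probe sets with the opposite sign. Frzb, a secreted WNT antagonist, read 174 and 149 against 97.3 and 66.5 (-0.90 ± 0.20, adjusted p = 0.045). The last members were Entpd5, a nucleotidase of the secretory pathway, Tmem114 and Aldh6a1, which acts in valine breakdown, with decreases of 0.72 to 0.74 and adjusted p of 0.0084 to 0.015. All 5 probe sets of Entpd5 had negative values, of -0.10 to -0.74, but just 1 passed. Rpl39 fell by 0.77 ± 0.16 (adjusted p = 0.042), a value that is uncertain because ribosomal protein genes have near-identical copies elsewhere in the genome.

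Most genes that mark the Sertoli cell gave no call. Of 22 identity genes, Gata4 rose and Cst9 and Aard fell, and the median was 0.02. Over all genes tested, 0.782% rose and 0.661% fell. Aard read 5309 and 4700 without activin and 3965 and 3615 with it. The arrays did not overlap. The change was small, -0.36 ± 0.07 (limma adjusted p = 0.026), and was not called under median scaling (adjusted p = 0.084). Sox9 stood at -0.24, Wt1 at -0.01, Dmrt1 at 0.04, Nr5a1 at 0.43 and Fshr at -0.19, none past the threshold.

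In the lists of Sertoli cell maturation and of junctions the calls were decreases, of Cldn11, which is in both lists, Cgn and Fabp5. Cldn11, the claudin that seals the blood-testis barrier, read 2175 and 1858 without activin and 1451 and 1204 with it. Both treated arrays lay below both controls. The change was -0.55 ± 0.10 (limma adjusted p = 0.017), and the adjusted p was 0.16 without the second 50 ng array and 0.059 under median scaling. Cgn, the tight junction plaque protein cingulin, fell from 369 and 321 to 229 and 197 (-0.66 ± 0.14, adjusted p = 0.042). Of 29 junction genes these 2 fell and none rose, with a median of -0.14. Over all genes tested, 0.661% fell and 0.782% rose. Ocln stood at -0.15, Tjp1 at -0.21 and Cdh2 at -0.32, none past the threshold. Of 19 maturation genes, Cldn11 and Fabp5, a fatty acid binding protein, fell and none rose, with a median of -0.20. Fabp5 fell from 2857 and 2712 to 2335 and 1906 (-0.38 ± 0.07, adjusted p = 0.018). Without activin at 15 dpp, Cldn11 read 1603 and 1757, below its untreated arrays of 6 dpp. Fabp5 read 2891 and 3023 there, just above its own. These arrays therefore do not show either gene to mark maturation.

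Most cholesterol genes had a negative value, with a single call. Of 26 genes of cholesterol synthesis, uptake and export, 23 had a negative value, as had 5965 of all 12405 genes tested. The median was -0.21 beside 0.01 over all genes. At 5 ng against 0 ng, which shares the 0 ng arrays, the median of the list was -0.20 beside -0.02 over all genes. The single call stands beside 0.661% of all genes that fell. Insig1, which holds the sterol sensor in the endoplasmic reticulum, read 276 and 349 without activin and 206 and 179 with it. The groups did not overlap, and the change was -0.66 ± 0.14 (limma adjusted p = 0.046). Hmgcs1, an early enzyme of the pathway, stood just outside the threshold at -0.44 ± 0.10 (adjusted p = 0.051), with signals of 2845 and 2712 against 2353 and 1704. Msmo1 and Insig2 had an adjusted p of 0.054 each. Many members of this list share a sterol-regulated control, so their values are not independent of each other. The list also holds the exporters Abca1 and Abcg1, which stood at -0.18 and -0.06. The sterol element core CACCCCA was found in 7.14% of the list's promoters (Hmgcs1 and Srebf2) and in 6.68% of all.

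**Figure D2:**
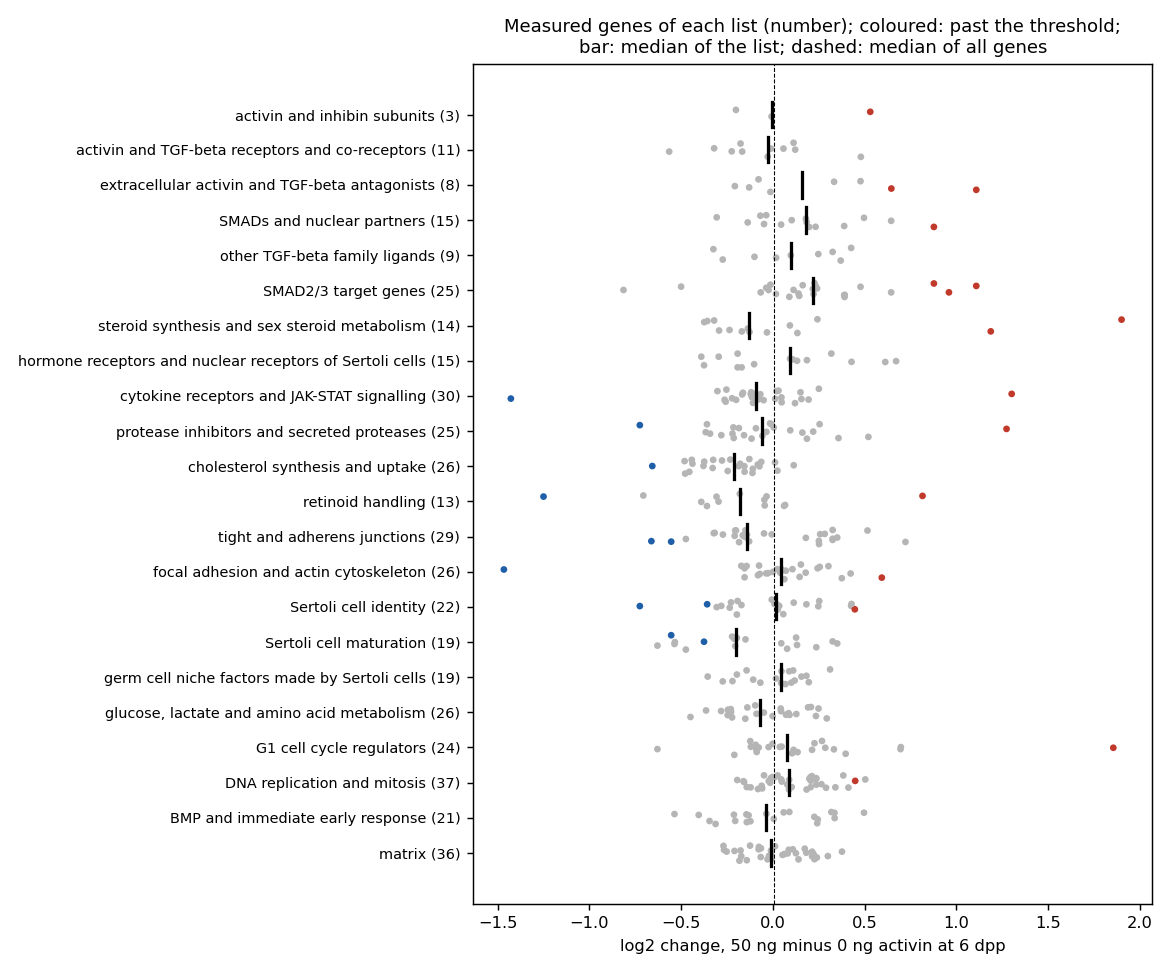
Change (horizontal axis, log2, 50 ng minus 0 ng at 6 dpp) of every measured gene in the 22 lists, with genes past the threshold in red (higher) or blue (lower), a bar at the median of the list and a dashed line at the median of all genes. Most lists centre near 0 with 0 to 3 coloured points each, the cholesterol list lies almost wholly to the left, and single genes such as Hsd17b1, Socs2, Rarres1 and Parvb stand far from the rest of their list.

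The remaining lists gave few calls. In 37 genes of DNA replication and mitosis, Mcm3, a subunit of the replicative helicase, rose from 312 and 279 to 433 and 384 (0.45 ± 0.10, limma adjusted p = 0.044). Positive values were found for 24 of the 37, and for 6440 of all 12405 genes. The mitotic genes Mki67, Ccna2 and Cdk1 stood at -0.12, -0.06 and -0.00. None of 15 hormone and nuclear receptors passed, with Rarg at 0.67 ± 0.19 (adjusted p = 0.11) closest. None of 19 niche factors passed, among them Kitl at -0.22 and Gdnf at 0.11, which keep spermatogonia alive and renewing. The 26 genes of glucose, lactate and amino acid metabolism gave no call. In this list Glul, which makes glutamine, came closest at -0.45 ± 0.10 (adjusted p = 0.050). None passed among 21 BMP response and immediate early genes, where Id2 stood at -0.54 ± 0.13 (adjusted p = 0.059), or among 36 matrix genes.

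Further genes passed in every setting without belonging to a list. Pmm1, an enzyme of mannose metabolism, read 296 and 287 without activin and 597 and 546 with it. Replicates were tight and the groups far apart. The change was 0.93 ± 0.08 (limma adjusted p = 0.00045), and its second probe set passed at 0.82. Bok, a BCL2 family member that can trigger apoptosis, read 404 and 400 against 766 and 834 (0.95 ± 0.09, adjusted p = 0.00080). Abcb10, a transporter of the inner mitochondrial membrane, read 144 and 145 against 295 and 303 (0.98 ± 0.12, adjusted p = 0.0030). In both genes the controls were almost equal and lay far below the treated arrays.

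Probe sets of the same gene were compared within the arrays. Of the 179 genes, 96 had more than 1 probe set past the filter. In 76 of them every probe set moved in the same direction, and in 20 at least 1 pointed the other way. The same share over all 5934 genes with several probe sets was not taken. These counts therefore have no background and only describe the genes that passed. A further probe set passed in the same direction for 15 genes, among them Pmm1, Pdgfb, Socs2, Tesc and Zg16. The other 83 genes, Hsd17b1, Hsd17b3, Serpina5, Fstl3 and Inha included, had 1 probe set.

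Values at 5 ng were set beside those at 50 ng for the same genes. The comparison of 5 ng with 0 ng uses the same 0 ng arrays and the comparison of 50 ng with 5 ng the same 50 ng arrays, so each comparison's own values and tests are given side by side, with no overlap or correlation between them. Against 0 ng, the 5 ng dose gave 1 gene past the threshold (0.00806%), E2f5. Its call rests on 1 probe set: the other 2 read 161 and 173, and 118 and 140, at 5 ng. Without activin these 2 read 152 and 182, and 178 and 140. The comparison of 50 ng with 5 ng gave 5 genes (0.0403%). Of those 5, 3 were higher (0.0242%) and 2 lower (0.0161%), and Pmm1, Cited1 and Rpl39 belong to the 179. Pmm1 read 313 and 319 at 5 ng, close to its level without activin. It was 0.82 ± 0.08 higher at 50 ng than at 5 ng (limma adjusted p = 0.0021). Cited1 read 796 and 850 at 5 ng, overlapping the untreated range, and was 0.61 ± 0.08 lower at 50 ng (adjusted p = 0.046). Rpl39 read 194 and 155 at 5 ng, above both its untreated and its 50 ng arrays, and was 1.13 ± 0.16 lower at 50 ng than at 5 ng (adjusted p = 0.046). These genes were picked out by their difference between 5 and 50 ng.

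Other genes took up intermediate levels at 5 ng. They were called because their 0 and 50 ng arrays lay apart, so a level between is likely from that choice alone. The share of genes with such a level was not counted, and no dose response is shown. Hsd17b1 read 124 and 161, between the untreated and the 50 ng arrays, 0.83 above 0 ng (limma adjusted p = 0.21) and 1.07 below 50 ng (adjusted p = 0.061). Serpina5 read 376 and 412, and Rarres1 196 and 172. Both also lay between the other doses without overlap. Fstl3 at 219 and 175 overlapped its untreated arrays, and stood 0.84 below the 50 ng level (adjusted p = 0.089).

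A few genes at 5 ng were at or near their 50 ng level. Inha read 1805 and 2032 at 5 ng, within the range of its 50 ng arrays, and the difference between these doses was 0.04 (limma adjusted p = 0.94; SE 0.11). Stra6 at 275 and 220 and Hsd17b3 at 593 and 666 were also near their 50 ng levels, differing by 0.16 and 0.32 (adjusted p = 0.77 and 0.69). E2f5 read 466 and 762 at 5 ng, with a mean above that at 50 ng, and the doses differed by -0.64 ± 0.28 (adjusted p = 0.52). Since few differences between the doses passed, a gene with no call there is not shown to be equal at both.

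**Figure D3:**
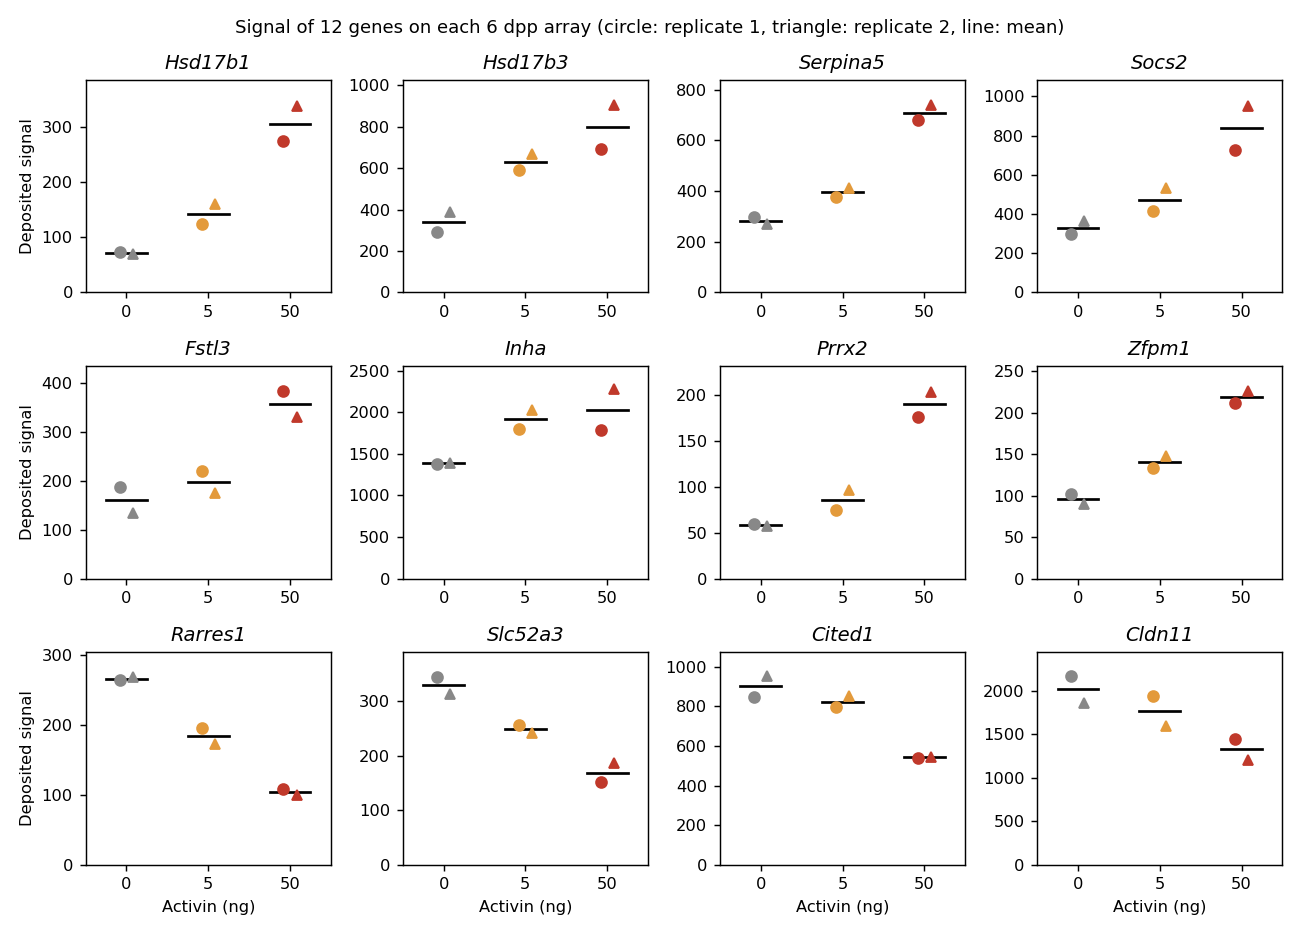
Deposited signal (vertical axis, linear from 0) of 12 genes on each of the 6 arrays of 6 dpp at 0, 5 and 50 ng activin (horizontal axis), with circles for replicate 1, triangles for replicate 2 and a line at the mean. The 5 ng arrays of Hsd17b1, Serpina5, Prrx2, Zfpm1, Rarres1 and Slc52a3, genes chosen for their difference between 0 and 50 ng, lie between those doses. The 5 ng arrays of Inha lie within the range of its 50 ng arrays, and those of Cited1 reach into the range of its untreated arrays.

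The comparison of 5 ng with 0 ng at 15 dpp shares no array with the one above and differs from it in age and dose. No gene passed there (0 by limma, with 605 at an unadjusted p under 0.05). Of the 97 genes raised by 50 ng at 6 dpp, 77 (79.4%) had a positive value at 15 dpp, against 48.9% of all genes tested. A positive value with an unadjusted p under 0.05 was found for 31 (32.0%), against 2.74% of all genes. That p uses the spread over all 10 arrays, which also served to call the genes at 6 dpp, and their median SE was 0.12 beside 0.13 over all genes. With the spread taken from the arrays of 15 dpp alone, 26 (26.8%) met the same bound, against 2.27% of all genes. Their median at 15 dpp was 0.15, beside -0.00 over all genes. Of the 82 lowered genes, 50 (61.0%) had a negative value, against 51.1%, and 8 (9.8%) a negative value with an unadjusted p under 0.05, against 2.14%. The median SE of these lowered genes was 0.099 beside 0.133 over all genes, so the shared spread bears on them too. With the arrays of 15 dpp alone the count was 5 (6.1%), against 2.04%. Their median was -0.04. Of the 97 raised genes, 9 had an untreated mean signal at 15 dpp under the filter level of 18.4, among them Hsd17b1, Hsd17b3 and Prrx2, and their values at that age depend on the 16 added to each signal.

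Abcb10 had the largest value of the raised genes at 15 dpp. It read 48.4 and 43.5 without activin and 81.3 and 85.5 with 5 ng. The groups did not overlap, and the difference of 0.68 had an unadjusted p of 8.4e-05 and a limma adjusted p of 0.22. Bok, at 191 and 189 against 281 and 294, gave 0.53 (adjusted p = 0.22). Hsd17b1 read 17.4 and 13.6 against 34.5 and 27.5 (0.59), Hsd17b3 5.09 and 17.0 against 22.7 and 28.3 (0.66), and Serpina5 159 and 130 against 289 and 194 (0.62). In each of the 3 the treated arrays lay above the untreated ones. The untreated signals of Hsd17b1 and Hsd17b3 were under the filter level there, while those of Serpina5 were well above it. Inha stood at 0.32, Stra6 at 0.44 and Zfpm1 at 0.29.

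Other genes with large changes at 6 dpp had values near 0 at 15 dpp. Pmm1 stood at 0.01, Fstl3 at 0.06, Prrx2 at 0.13, Socs2 at 0.15 and Smad7 at -0.02. Of these, Prrx2 with 7.92 and 13.9 and Socs2 with 43.7 and 41.8 read less without activin at that age than at 6 dpp, while Pmm1 with 599 and 621 and Fstl3 with 423 and 536 read more. Rarres1 kept its direction at -0.31, and Cited1 stood at -0.01. Cst9 had a positive value of 0.36 there. Whether the effects differ between the ages was not tested, since the doses differ as well.

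**Figure D4:**
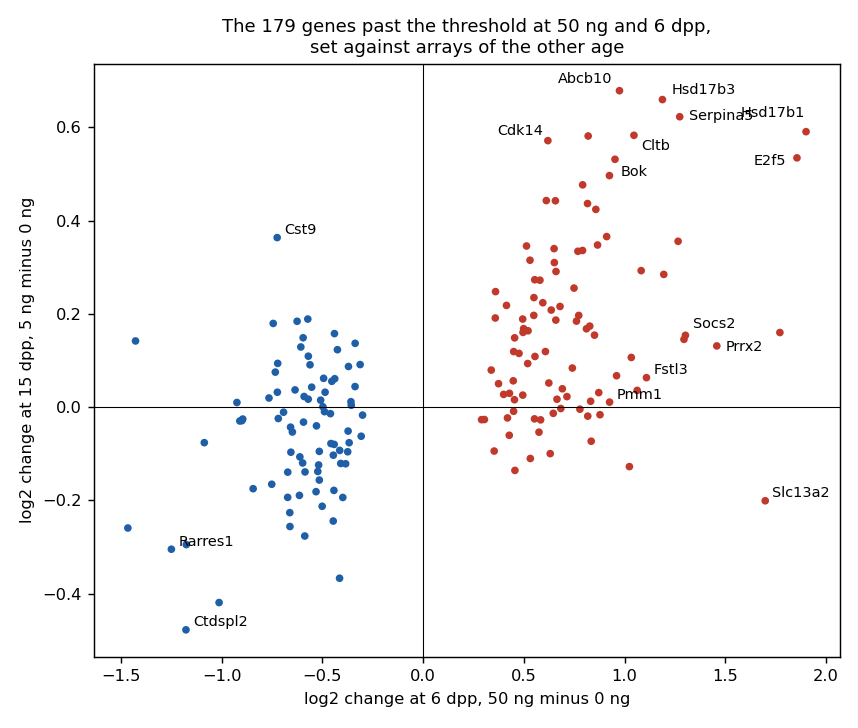
Change of the 179 genes at 15 dpp (vertical axis, log2, 5 ng minus 0 ng) against their change at 6 dpp (horizontal axis, log2, 50 ng minus 0 ng), in red for the 97 raised and blue for the 82 lowered genes. Of the red points, 77 lie above 0, led by Abcb10 and Hsd17b3 (the latter from signals near the filter level), and 50 of the blue points lie below 0, with Cst9 the highest of those above.

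Markers of other testis cells were read on the same arrays. None of the 15 germ cell markers measured passed, and their summed signal was 3460 and 3678 without activin and 3704 and 3583 with 50 ng. Dazl, which defines germ cells, read 426 to 551 on the 4 arrays. None of 9 peritubular myoid markers passed (10621 and 8937 against 11662 and 10114). Most of that sum came from Acta2, which read 3456 to 4124, Tagln and Myl9. Others were weak on the 4 arrays: Cnn1 read 24.3 to 47.4, Des 32.85 to 63.9 and Lmod1 29.25 to 46.3. None of 11 fibroblast and interstitial markers passed (13835 and 14964 against 12112 and 14881), and Col3a1 read 3523 to 4288. None of 7 endothelial markers (301 and 274 against 324 and 407) or 11 macrophage markers (265 and 319 against 318 and 362) passed. The macrophage markers measured were weak, from 2.41 to 53.2 on the 4 arrays, and C1qa and C1qc, which did not pass the filter, read at most 3.45. Transcripts listed as markers of germ and interstitial cells were thus present, and those of macrophages were low. Of the myoid list, mainly Acta2, Tagln and Myl9 were strong, which does not settle whether myoid cells were present. The part of all these cells in the changes described was not tested.

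The genes nearest to the threshold had values much like each other. Just inside it lay Prr12 at 0.68, Stard8 at -0.52 and Jakmip1 at -0.41, with limma adjusted p of 0.049 to 0.050. Just outside lay Cda at 0.84, Glul at -0.45 and the clone-named 1700003E16Rik at 1.21, with 0.050 to 0.051. Without adjustment, p was under 0.05 for 1739 genes.

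**Figure D5:**
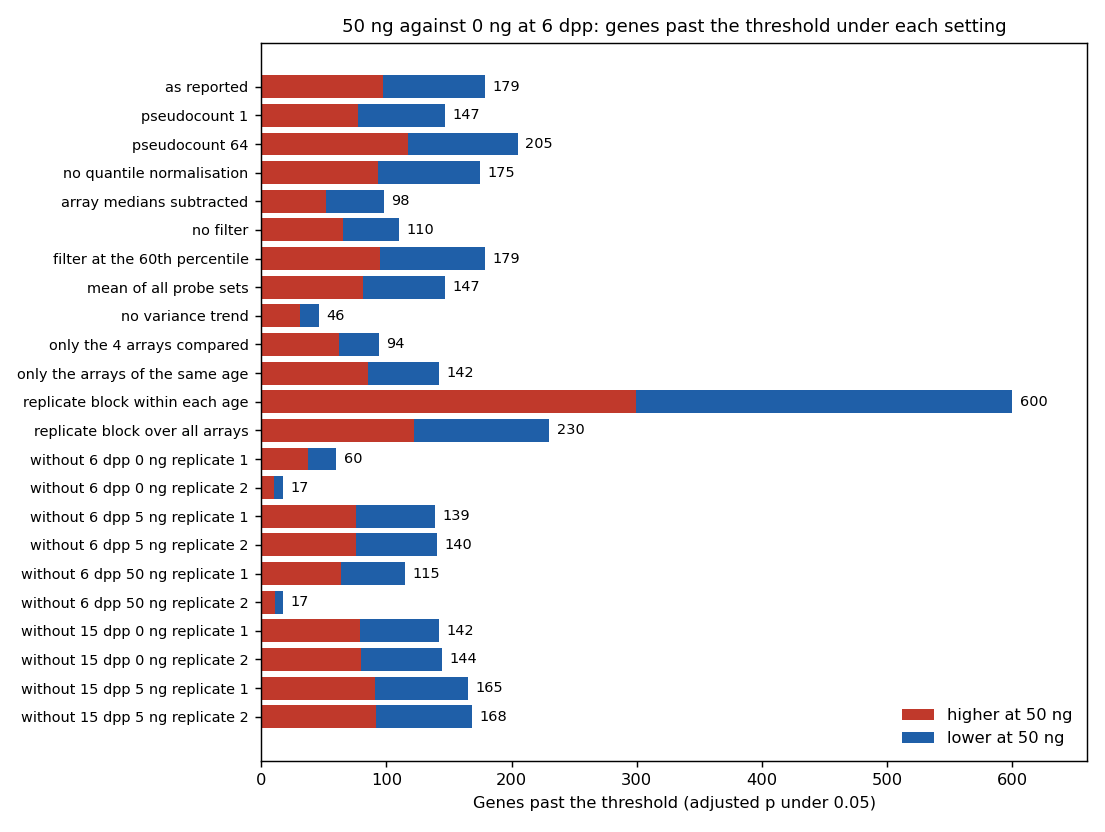
Number of genes past the threshold at 50 ng against 0 ng (horizontal axis), raised in red and lowered in blue, as reported and under each of 22 other settings (vertical axis). The count of 179 fell to 17 without the second 0 ng array or the second 50 ng array and rose to 600 with the replicate number as a block within each age.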

How the data were processed

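RNA of 10 Sertoli cell samples (5 groups of 2) was measured on Affymetrix arrays. Per the labels' protocols, Trizol was used for extraction and the one-cycle 3′ kit for amplification, with biotin as the label. The deposited value table gives 45101 probe sets, each with a linear intensity on every array. On each array the mean without the lowest and highest 2% was 125.001. How the authors summarised probes is not given in the sources used here. Array number limits the precision.

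After leaving out 64 control probe sets, log2(signal + 16) was quantile normalised, and 27022 probe sets with a mean at or above the 40th percentile (5.1, a signal of 18.4) were kept. The platform annotation (2016) gave 34945 probe sets 1 symbol, 932 several and 9160 none. Symbols of 34741 were updated through RefSeq GRCm38.p6 and 204 kept the annotation's name. For each gene the probe set with the highest mean over the 10 arrays was used, which left 12405 genes (5934 had several). limma 3.58.1 in R 4.3.3 fitted 1 mean per group on all 10 arrays (lmFit, eBayes with an intensity trend, two-sided). Benjamini-Hochberg adjustment ran over all genes tested, for each comparison on its own, and genes passed under 0.05. The code was tested on simulated data.

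Genes were named by rule: the 14 largest positive and 14 largest negative changes that passed, with arrays that do not overlap, a higher group mean signal of at least 50 and no clone name, every called member of a list, a set of pathway genes, and up to 2 members per list with the smallest p. Genes named beyond the rule were chosen after their values were seen. The comparison, the 22 lists, the 7 marker lists and the alternatives (pseudocount, scaling, filter, probe set rule, variance model, arrays in the fit, replicate block, each array left out) were chosen with earlier results of these data known. None of the 7 erythroid markers passed the filter.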

Additional observations from a re-analysis of the deposited data

How the results depend on the processing

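Direction held for all 179 genes under each of the 22 alternatives in which they were measured. Among the named genes that did not pass, 3 with values near 0 turned direction when 1 array was left out: Inhba reached 0.15, Fst 0.20 and Acvr1b -0.06. The number of genes past the threshold was less stable. For 50 ng against 0 ng at 6 dpp (179 genes) it was 98 when array medians were subtracted, 94 when the fit held just the 4 arrays compared, 46 when the variance had no trend, 110 when no filter was applied, and 17 to 168 with 1 array left out. The share of raised genes was 54.2%, 52.4% to 57.1% under other pseudocounts and scalings, 67.4% without the variance trend, 66.0% with only the 4 arrays and 49.8% with the replicate block within each age. For 50 ng against 5 ng (5 genes) it was 11 at a pseudocount of 64, 8 with medians subtracted, 1 without a filter, 18 with the mean of all probe sets, 0 without the trend (1080 at an unadjusted p under 0.05), 0 with only the 4 arrays (1092 unadjusted), 1 with the arrays of 6 dpp, and 0 to 7 with 1 array left out. For 5 ng against 0 ng at 15 dpp (0 genes) it was 1 at a pseudocount of 1 and 0 to 1 with 1 array left out (469 to 912 unadjusted wherever none passed). For 5 ng against 0 ng at 6 dpp (1 gene) it was 2 at a pseudocount of 1 and with medians subtracted, 0 without a filter, with the mean of probe sets, without the trend, with 4 arrays or with the arrays of 6 dpp (659 to 1560 unadjusted wherever none passed), and 0 to 2 with 1 array left out. The cause of these shifts was not tested, beyond the smaller number of arrays or larger number of genes that some settings bring. Leaving out an array leaves its group with 1, assumed to vary like the others.

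Replicate numbers were shared by the groups, with only 2 numbers, so they were not taken to pair the samples. Deviations of same-numbered arrays correlated at 0.189 between 0 and 50 ng at 6 dpp, 0.164 and 0.190 for the other pairs of that age, 0.203 at 15 dpp and -0.051 to 0.029 across ages. With a replicate block within each age, 600 genes passed for 50 ng against 0 ng, 141 for 50 ng against 5 ng, 80 for 5 ng against 0 ng at 6 dpp and 20 at 15 dpp. Within-age blocking left the calls of 57 of 70 named genes on the same side of the threshold and added 13: Tgfbr1 (adjusted p = 0.012), Amhr2 (0.00063), Smad3 (0.044), Tgif1 (0.017), Gja1 (0.0014), Ccnd2 (5.9e-05), Hmgcs1, Glul, Slc16a1, E2f1, Mcm5, Id2 and Jund. With a replicate block over all arrays, 230 passed for 50 ng against 0 ng and 8 for 50 ng against 5 ng.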

Other observations

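Outside the lists, genes for which a further probe set passed at 50 ng included Pdlim7 (0.55 ± 0.10), which links actin to enzymes, Tns1 (0.79 ± 0.12), a tensin of focal adhesions, and Adgrg1 (0.61 ± 0.10), an adhesion receptor. All 3 also had positive values at 15 dpp with an unadjusted p under 0.05. Tns1 read 237 and 234 without activin and 389 and 444 with it at 6 dpp. Pdlim4, a relative of Pdlim7, read 695 and 735 against 1109 and 1276 (0.75 ± 0.11, limma adjusted p = 0.0077). Cltb, a clathrin light chain, read 343 and 227 against 643 and 548 (1.05 ± 0.16, adjusted p = 0.0084), and at 15 dpp 155 and 183 against 266 and 269. Ntf5, a neurotrophin, read 114 and 111 against 214 and 216 at 6 dpp, with tight replicates (0.86 ± 0.12, adjusted p = 0.0077).

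Among lowered genes outside the lists, Lgr4, a receptor of R-spondins that strengthens WNT signals, read 1088 and 1194 without activin and 787 and 699 with it (-0.59 ± 0.12, limma adjusted p = 0.030). Efemp1, a matrix protein, read 1382 and 1106 against 919 and 706 (-0.59 ± 0.11, adjusted p = 0.020). Ttyh1, a chloride channel, read 681 and 707 against 404 and 411 with close replicates (-0.72 ± 0.09, adjusted p = 0.0034). Atp1b1, a subunit of the sodium pump, read 902 and 833 against 617 and 569 (-0.52 ± 0.07, adjusted p = 0.0064). Ppt1, a lysosomal thioesterase, read 1429 and 1331 against 906 and 941 (-0.57 ± 0.10, adjusted p = 0.015). These genes were chosen after their values were seen.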
